A study of Gallus gallus with 24 samples.

Results

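Glycolysis turns glucose into pyruvate, and the genes described here encode its enzymes, the transporters and switches on either side of it, and the genes that cells turn on when oxygen is short. The list held 35 genes. A gene was matched to the probe sets that carry its symbol in the platform annotation, and the probe set of highest mean over all arrays stood for it. By that rule 31 of the 35 genes were found, all of them above the filter on low values, among 13009 named genes and 26907 tested probe sets. PGK1, PKM and SLC2A3 were found through their gene ID under other symbols (PGK2, PKLR and SLC2A14), so their values are given beside the counts and not in them. PFKFB4 was not matched and is not analysed here.

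RNA came from the retina and pigment epithelium, dissected together, of white Leghorn chicks that received the goggle at 1 week of age, under ether, at light onset of a 12 h light and dark cycle. The goggle, a translucent white plastic cover glued over 1 eye on alternate sides, deprives that eye of form vision, after which it elongates and becomes short-sighted (form-deprivation myopia). The 4 groups, with 6 arrays each, were the goggled and the open fellow eyes of 6 chicks after 3 d of wear and of 6 other chicks after 6 h. Per the labels 8 chicks were goggled for each time, so not all of them are on the arrays. Arrays of 1 time that share a number were taken as both eyes of 1 chick, a pairing checked by correlation and not stated in the labels. All open eyes belonged to chicks that wore a goggle on the other side, so no eye of an untreated chick was compared.

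The retina is known for making much lactate even in the presence of oxygen, above all in photoreceptors. Lactate dehydrogenase makes lactate from pyruvate, and pyruvate dehydrogenase kinases favour the same route because they switch off the entry of pyruvate into mitochondrial oxidation. Glucose reaches the photoreceptors across the pigment epithelium, and lactate leaves through monocarboxylate transporters. When oxygen falls, the transcription factors HIF1A and EPAS1 are no longer destroyed and raise glycolytic genes, VEGFA and others, while EGLN1 and EGLN3 are the oxygen sensors that mark them for destruction.

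Values are linear array signals, scaled by the authors to 1 trimmed mean on every array, and levels of different genes are not compared. A difference is the mean of log2(signal + 16) in 1 group minus that in another, fitted with limma over all 26907 tested probe sets, given with its standard error (SE). A call is a Benjamini-Hochberg adjusted p below 0.05, and the spread it is set against is that between chicks within groups. The main fit did not use the pairing of both eyes of a chick, which entered the fits only with the chick as a block. In pieces of whole tissue, fewer cells of a type and less RNA per cell cannot be told apart. Chicks of the 2 times differed in age as well as in length of wear, and these cannot be told apart either. Goggles went on at light onset, so the time of day at collection may also have differed between the times. The same holds for any separate handling of the 2 sets of chicks. The median signal of an array was lower at 3 d (32.6 ± 2.21 in goggled and 35.7 ± 2.68 in open eyes, SD) than at 6 h (39.8 ± 3.01 and 40.5 ± 3.41), so directions between times were also read after quantile normalization and median centring. The actin 3′ to 5′ signal ratio, a sign of RNA quality, was 2.40 to 5.05 over the 24 arrays. The arrays of 3 d goggled replicate 3, 3 d open replicate 2 and 6 h open replicate 5 were rich in markers of choroid, sclera and vessels (summed signals 6305, 3488 and 3198, against group medians of 580.5, 558 and 625.2), and 6 h goggled replicates 5 and 6 were rich in muscle markers. In each group at most 1 of 9 photoreceptor, 0 of 6 Mueller glia and at most 1 of 10 pigment epithelium markers lay at or below background, set at a signal of 22.8, the 95th percentile of the control probe sets for reporter genes.

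None of the 31 genes was called between goggled and open eyes at 3 d, where 0.00743% of all tested probe sets were called. None was called at 6 h or in the difference between the goggle effects at both times, where 0% of all tested probe sets were called, nor over both times together (0.00743% of all). At 3 d 25 genes had lower and 6 had higher means in goggled eyes, against 58.5% of all tested probe sets below 0. At 6 h 15 were lower (53.6% of all), and over both times 22 (58.4%). The number lower at 3 d was 24 after quantile normalization and 16 after median centring, so the split between higher and lower depended on the scaling. The median log2 difference of the 31 genes was -0.07 at 3 d, against -0.03 over all tested probe sets, and it was 0.00 at 6 h, against -0.01. An unadjusted p under 0.05 was reached by 3 of the 31 genes at 3 d (5.38% of all tested probe sets), by none at 6 h (2.36%) and by 6 over both times (6.04%). With the chick as a block the numbers were 4, 2 and 6 (8.9%, 4.58% and 9.66%), and again no gene was called. The goggled and open eyes of every gene overlapped at 3 d (0.0595% of all tested probe sets were separate and higher, 0.216% separate and lower) and at 6 h (0.0483% and 0.0706%).

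**Figure D1:**
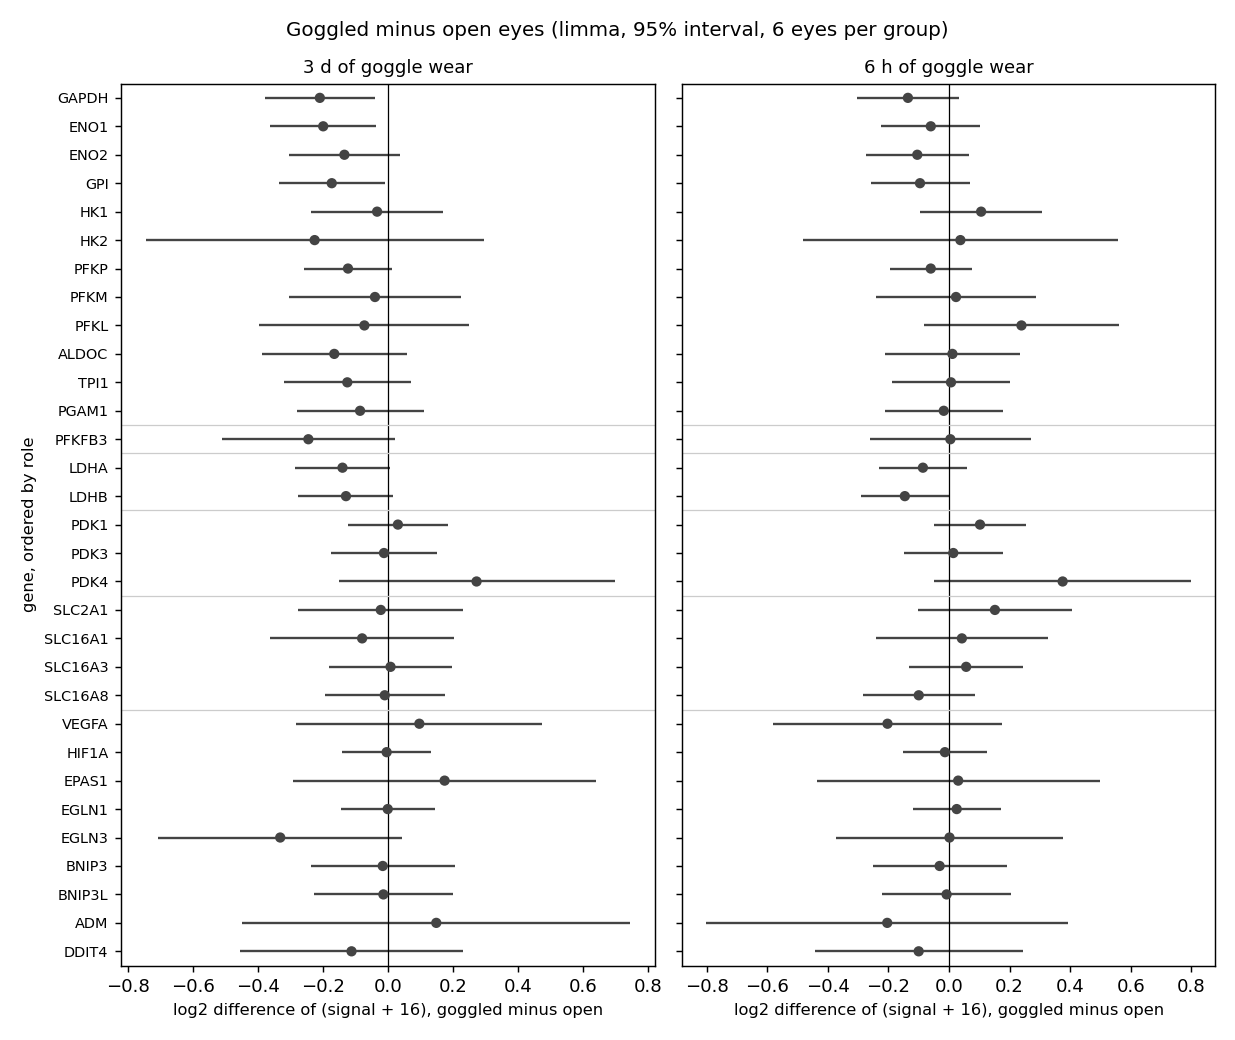
Log2 difference of (signal + 16), goggled minus open eyes (horizontal axis), for 31 genes ordered by role (vertical axis), at 3 d (left) and 6 h (right). Points are limma estimates from 6 eyes per group and lines are 95% intervals. All 12 glycolytic enzymes lie below 0 at 3 d (10 of 12 after quantile normalization and 10 of 12 after median centring), and none of the 31 genes was called in either panel.

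All 12 glycolytic enzymes matched by symbol had lower means in goggled eyes at 3 d, with log2 differences of -0.03 to -0.23 and a median of -0.13. None of these differences passed the adjusted test. These values are those of the brightest probe sets. The second probe sets of GAPDH, ENO1, GPI and PFKP also had lower mean signals in goggled eyes at 3 d. That of HK1 had a higher one (1404 against 1368). After quantile normalization and after median centring 10 of the 12 were lower, with medians of -0.08 and -0.07. At 6 h the enzymes were divided, 6 higher and 6 lower, with a median of -0.01. The 3 d shift was not present in every chick: 11, 11 and 11 of the 12 enzymes were lower in the goggled eye of chicks 2, 5 and 6, and 8, 6 and 3 were lower in chicks 4, 3 and 1. Single arrays stood at the edge of their group for many enzymes at once. Among the 3 d goggled eyes replicate 5 had the lowest signal of its group for 11 of the 12 enzymes (17.6% of all tested probe sets), and 3 d open replicate 6 had the highest for 9 of the 12 (26.5%). In the 6 h open eyes replicate 3 had the highest signal for 9 of the 12 (19.2%).

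GAPDH, which oxidises glyceraldehyde-3-phosphate, had signals of 7657 to 9592 (median 8860.5) in goggled eyes and 9275 to 11461 (median 10150.3) in open eyes at 3 d. At 6 h GAPDH had 8024 to 9174 (median 8592) in goggled eyes and 8325 to 11187 (median 9316) in open eyes. The groups overlapped at both times, and the goggled eye had the lower signal in 5 of 6 chicks at 3 d and in 6 of 6 at 6 h (1.71% of all tested probe sets were lower in 6 of 6 at 6 h). GAPDH had the lowest difference of the 31 genes over both times, -0.17 ± 0.06 (SE), with an unadjusted p = 0.00649 and a limma adjusted p = 0.753. Over both times it was -0.07 after quantile normalization and -0.13 after median centring. At 3 d alone the difference was -0.21 (95% interval -0.38 to -0.04). The 4 Affymetrix control probe sets for GAPDH, kept out of the test as controls, differed by -0.11 to -0.21 at 3 d. At 6 h they differed by -0.04 to -0.12 and were lower in 3 or 4 of 6 chicks.

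ENO1, an enolase that makes phosphoenolpyruvate late in the pathway, had 7617 to 9471 (median 9252) in goggled eyes and 9296 to 12021 (median 10116) in open eyes at 3 d. ENO1 then differed by -0.20 ± 0.08 (SE; unadjusted p = 0.0195, limma adjusted p = 0.864) and was lower in 5 of 6 chicks. GPI, which turns glucose-6-phosphate into fructose-6-phosphate, differed by -0.17 ± 0.08 (SE), also lower in 5 of 6. These 3 enzymes were the ones with an unadjusted p under 0.05 at 3 d. PFKP, a phosphofructokinase isoform, differed by -0.12 and was the 1 enzyme of the 12 that lay below the fellow eye in each of the 6 chicks (as did 3.24% of all tested probe sets). PGK1 and PKM, the phosphoglycerate and pyruvate kinases matched by gene ID, differed by -0.13 ± 0.08 and -0.16 ± 0.10 (SE), lower in 5 and 4 of 6 chicks. After quantile normalization they differed by 0.00 and -0.11, and after median centring by -0.07 and -0.10. PKM was -0.07 without 3 d open replicate 6.

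PKM had 4824 to 6403 (median 6285) in goggled eyes and 5843 to 8838 (median 6013) in open eyes at 3 d. At 6 h PKM had 5714 to 6973 (median 6452) in goggled eyes and 6076 to 7025 (median 6479.7) in open eyes. Its groups overlapped at both times, and the difference at 6 h was -0.03. HK2, a hexokinase that traps glucose in the cell and is induced by low oxygen in mammals, had 199 to 590.3 (median 386) in goggled eyes and 236 to 890.4 (median 409) in open eyes at 3 d. At 6 h HK2 had 188 to 360.4 (median 280.1) in goggled eyes and 159.5 to 337 (median 291) in open eyes. HK2 was the most variable enzyme, with a 3 d difference of -0.23 ± 0.25 (95% interval -0.74 to 0.29). Single arrays moved this difference both ways. It was -0.02 without 3 d open replicate 6 (890.4) and -0.06 without 3 d goggled replicate 5. Without 3 d goggled replicate 3 it was -0.36, and without 3 d open replicate 2 it was -0.39. PFKL, the liver-type phosphofructokinase, had 299.8 to 486 (median 406) in goggled eyes and 307 to 654 (median 365) in open eyes at 3 d. At 6 h PFKL had 291 to 443 (median 385) in goggled eyes and 254 to 352 (median 325) in open eyes. Here the goggled eye was higher in 5 of 6 chicks at 6 h (difference 0.24 ± 0.16, SE, 95% interval -0.08 to 0.56), although the groups overlapped. The probe sets of PFKL and PFKM share the cluster number in their probe set names and may share sequence, so their split is uncertain.

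PFKFB3, the bifunctional enzyme whose product activates phosphofructokinase, had 132 to 221 (median 185) in goggled eyes and 172 to 248 (median 218) in open eyes at 3 d. At 6 h PFKFB3 had 142 to 239.6 (median 184) in goggled eyes and 144 to 238 (median 179) in open eyes. The 3 d difference, negative in 4 of 6 chicks, was -0.24 ± 0.13 (SE; unadjusted p = 0.0707, limma adjusted p = 0.922). The 6 h difference was 0.00. Both groups overlapped at each time.

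Both lactate dehydrogenases had lower means in goggled eyes at each time, as deposited, without being called. LDHA, the subunit that favours lactate formation, had 6957 to 7951 (median 7420.2) in goggled eyes and 7510.3 to 8736 (median 8420.5) in open eyes at 3 d. At 6 h LDHA had 7311 to 8039 (median 7924) in goggled eyes and 7240.5 to 9111 (median 8417) in open eyes. The LDHA difference over both times was -0.11 ± 0.05 (SE), lower in 9 of 12 chicks. LDHB, the subunit that favours lactate use, had 5724 to 6529.6 (median 6116) in goggled eyes and 6256 to 7024 (median 6809.8) in open eyes at 3 d. At 6 h LDHB had 5094 to 5512 (median 5153) in goggled eyes and 5228 to 6709.6 (median 5662) in open eyes. LDHB was lower in the goggled eye of 11 of 12 chicks (4.45% of all tested probe sets were lower in 10 or more), by -0.14 ± 0.05 (SE; unadjusted p = 0.0113, limma adjusted p = 0.780). After quantile normalization and after median centring both subunits kept lower means over both times and at 3 d. At 6 h alone only 1 of the 2 was lower after quantile normalization, and 2 of 2 after median centring.

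A pyruvate dehydrogenase kinase gave the highest goggle difference of the 31 genes at each time. PDK4, a kinase induced by fasting and glucocorticoids in mammals, had 366 to 615 (median 518) in goggled eyes and 334 to 559 (median 382) in open eyes at 3 d. At 6 h PDK4 had 466 to 993 (median 795) in goggled eyes and 340.1 to 841 (median 559) in open eyes. The groups overlapped at both times, but PDK4 was higher in the goggled eye of 9 of 12 chicks. Over both times the difference was 0.32 ± 0.15 (SE, 95% interval 0.02 to 0.62, unadjusted p = 0.0355, limma adjusted p = 0.810), and with the chick as a block the unadjusted p was 0.00464. PDK1 and PDK3 differed by 0.07 and 0.00 over both times.

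The transporters showed no shared direction at 3 d, with 3 of 4 lower (4 of 4 after quantile normalization and 1 of 4 after median centring). SLC2A1, the main glucose transporter of the pigment epithelium and of blood-tissue barriers, had 3082 to 3927 (median 3688) in goggled eyes and 3145 to 4128 (median 3709) in open eyes at 3 d. At 6 h SLC2A1 had 3913 to 5531 (median 4332) in goggled eyes and 3170.2 to 5634 (median 3932) in open eyes. Its goggle difference was -0.02 at 3 d and 0.15 at 6 h, with overlapping groups. SLC2A3, a glucose transporter of neurons matched by gene ID, differed by -0.10 and -0.12. SLC16A8, the lactate transporter of the pigment epithelium, differed by -0.01 (95% interval -0.19 to 0.18) at 3 d and by -0.10 at 6 h. The 3 d interval of SLC16A1, a lactate transporter of many cells, was -0.36 to 0.20.

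Among the 9 low oxygen response genes 6 had lower means at 3 d (6 after quantile normalization and 2 after median centring), and the median was 0.00. HIF1A, the oxygen-regulated transcription factor, had 2737 to 3208 (median 2904) in goggled eyes and 2694 to 3075 (median 3016) in open eyes at 3 d. At 6 h HIF1A had 2506 to 2805 (median 2612) in goggled eyes and 2421 to 2844 (median 2699) in open eyes. Its goggle difference was 0.00 at 3 d (95% interval -0.14 to 0.13) and -0.01 at 6 h. VEGFA, the growth factor for vessels, had 46.4 to 87.1 (median 73.5) in goggled eyes and 37.7 to 104 (median 62.7) in open eyes at 3 d. At 6 h VEGFA had 51.3 to 121 (median 96.9) in goggled eyes and 79.3 to 130.3 (median 107) in open eyes. The goggled eyes had a higher VEGFA mean at 3 d (0.10 ± 0.18, SE) and a lower one at 6 h (-0.20 ± 0.18), with overlap at both times.

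EPAS1, the relative of HIF1A found mainly in vessels, had 279 to 695 (median 321) in goggled eyes and 193 to 490 (median 309) in open eyes at 3 d. At 6 h EPAS1 had 317 to 599 (median 488) in goggled eyes and 318 to 651 (median 410.4) in open eyes. The highest 3 d value came from goggled replicate 3, the array richest in choroid, sclera and vessel markers. The difference was 0.17 ± 0.23 with it and 0.11 without the 3 arrays rich in those markers. It was -0.02 without goggled replicate 3 alone and 0.30 without 3 d open replicate 2 alone. ADM, a vasodilating peptide induced by low oxygen, had 28.0 to 131 (median 32.3) in goggled eyes and 18.8 to 66.0 (median 38.4) in open eyes at 3 d. At 6 h ADM had 22.8 to 108 (median 34.4) in goggled eyes and 35.7 to 84.2 (median 43.9) in open eyes. The array of 3 d goggled replicate 3 also held the highest ADM signal. The 3 d ADM difference of 0.15 ± 0.29 became 0.01 without those 3 arrays. It was -0.12 without goggled replicate 3 alone and 0.28 without 3 d open replicate 2 alone. EGLN3, an oxygen sensor, had 1.80 to 25.3 (median 22.1) in goggled eyes and 15.9 to 45.4 (median 26.8) in open eyes at 3 d. At 6 h EGLN3 had 21.3 to 41.5 (median 27.8) in goggled eyes and 21.6 to 40.1 (median 29.4) in open eyes. EGLN3 had the lowest 3 d difference of the 31 genes, -0.33 ± 0.18 (SE, 95% interval -0.71 to 0.04), but it was -0.14 without 3 d goggled replicate 4 (signal 1.80), and then no longer the lowest, and the signals of EGLN3 lie near the background of 22.8. The same holds for DDIT4, an inhibitor of growth signalling, which differed by -0.11.

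The goggle effect was set against itself between the times. It was lower at 3 d for 24 of the 31 genes (22 after quantile normalization and 19 after median centring) and for all 12 enzymes (11 of 12 after quantile normalization and 11 after median centring), while 54.4% of all tested probe sets were below 0. The lowest differences between the effects were those of EGLN3 (-0.33 ± 0.26, SE), PFKL (-0.31 ± 0.22) and HK2 (-0.26 ± 0.36). ADM (0.35 ± 0.41), VEGFA (0.30 ± 0.26) and EPAS1 (0.14 ± 0.32) had the highest, and that of EPAS1 was -0.02 without the 3 arrays rich in choroid, sclera and vessel markers. Single arrays carried much of these values, and some made them larger when left out. Without 3 d open replicate 2 those of HK2 and EPAS1 were -0.43 and 0.27, and without 6 h goggled replicate 5 that of ADM was 0.58. Other arrays made them smaller or turned their sign. Without 3 d goggled replicate 4 that of EGLN3 was -0.14, without 3 d open replicate 6 those of PFKL, HK2 and VEGFA were -0.18, -0.06 and 0.19, without 6 h goggled replicate 6 that of VEGFA was 0.17, and without 3 d goggled replicate 3 those of ADM and EPAS1 were 0.09 and -0.05. None of the 31 genes reached an unadjusted p of 0.05 here (2.23% of all tested probe sets did), and none did with the chick as a block (4.22%).

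**Figure D2:**
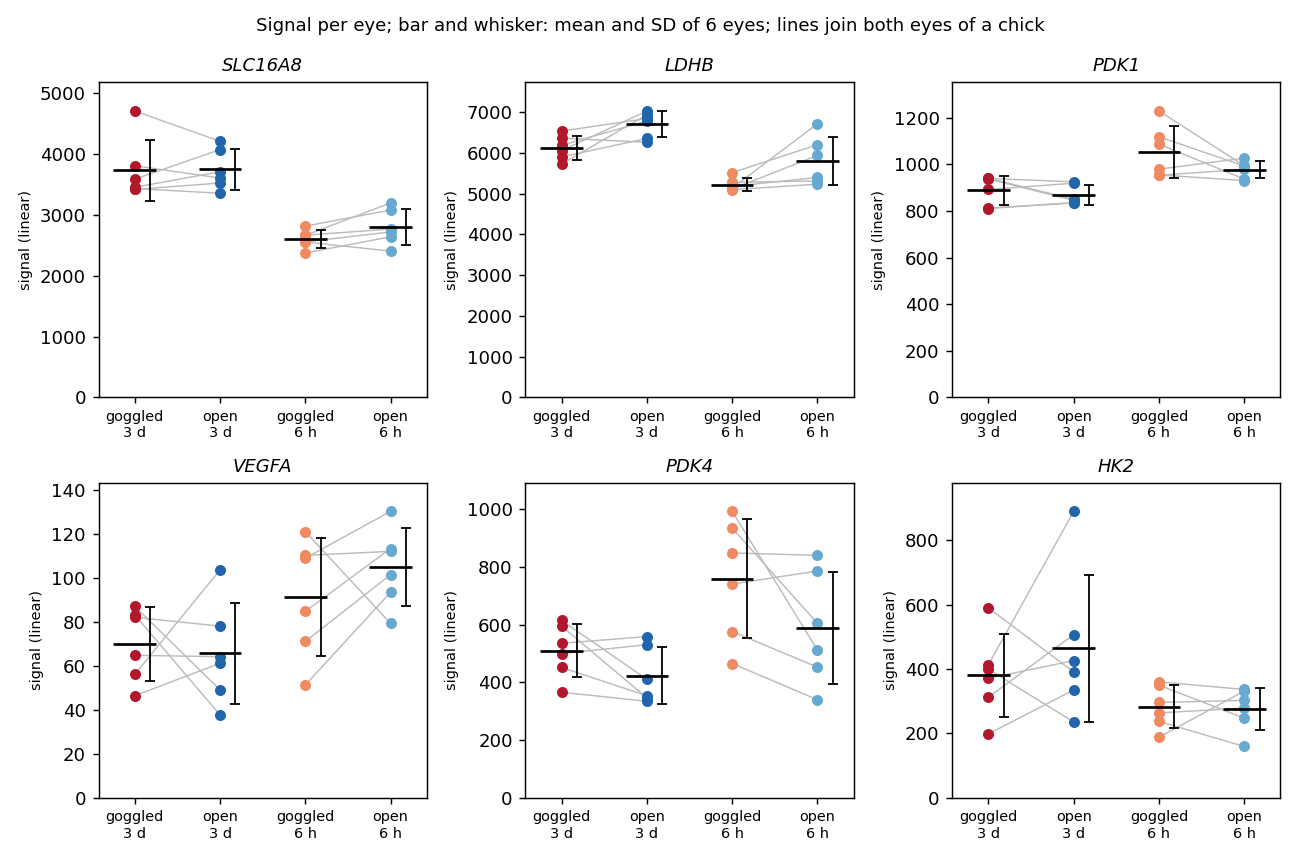
Linear signal (vertical axis, starting at 0) of 6 genes in each of the 24 eyes, by group. Bars and whiskers are the mean and SD of 6 eyes, and lines join both eyes of a chick. SLC16A8 (higher at 3 d) and PDK1 (lower) have no overlap between times in either eye, and LDHB (higher) has none in goggled eyes. Of all tested probe sets 2.48% in goggled and 1.41% in open eyes were separate and higher, and 3.63% and 2.01% separate and lower. The goggled and open eyes overlap for each gene at both times.

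Between the times more genes moved. In goggled eyes 3 of the 31 genes were called at 3 d against 6 h, when 12.7% of all tested probe sets were (4.13% higher and 8.57% lower). SLC16A8 and LDHB rose and PDK1 fell. In open eyes 2 of the 31 were called, SLC16A8 upward and VEGFA downward, against 7.32% of all tested probe sets (2.61% higher and 4.71% lower). Neither count stood above these shares. An unadjusted p under 0.05 was reached by 8 of the 31 in goggled (28.4% of all) and by 14 in open eyes (23% of all). Lower means at 3 d were found for 15 genes in goggled (62.1% of all) and 12 in open eyes (58.9%). The split of all calls between the times depended on the scaling. In goggled eyes 1110 of 3416 calls were higher, but 1082 of 2188 after quantile normalization and 2293 of 3397 after median centring. In open eyes 703 of 1970 calls were higher, but 826 of 1726 and 1381 of 2095. The median log2 difference over all tested probe sets in goggled eyes was -0.08 as deposited, 0.01 after quantile normalization and 0.03 after median centring, and that of the 31 genes was 0.01, -0.02 and 0.12. In open eyes the medians over all were -0.05, 0.01 and 0.03, and those of the 31 genes 0.10, 0.03 and 0.18.

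**Figure D3:**
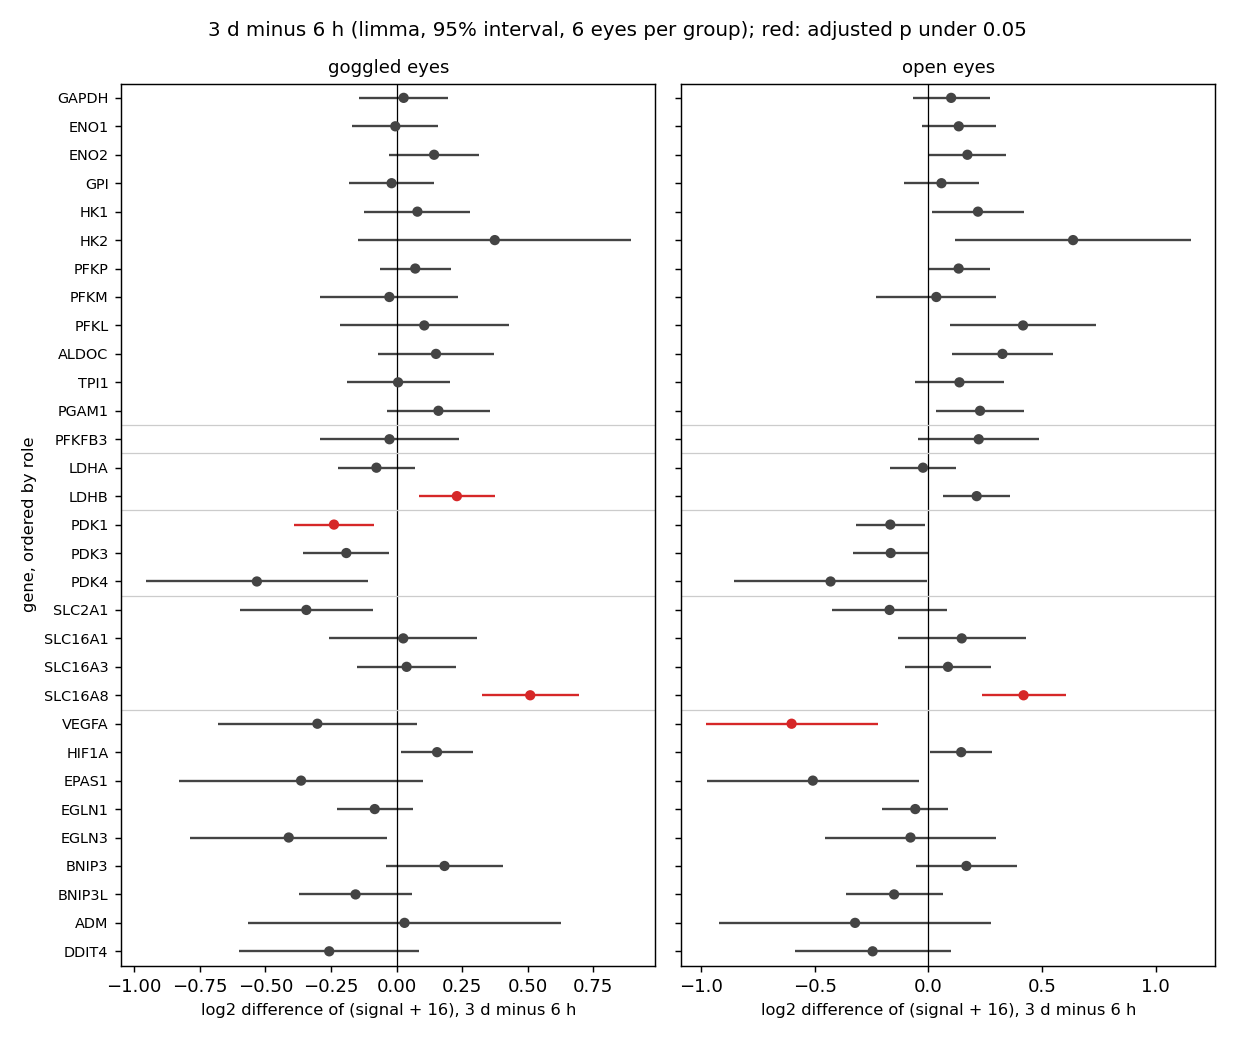
Log2 difference of (signal + 16), 3 d minus 6 h (horizontal axis), for 31 genes ordered by role (vertical axis), in goggled (left) and open (right) eyes. Points are limma estimates from 6 eyes per group, lines are 95% intervals and red marks an adjusted p under 0.05. SLC16A8 is red in both panels, and the 3 pyruvate dehydrogenase kinases lie below 0 in both, also after quantile normalization and median centring.

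With each of the 31 genes read at its brightest probe set, SLC16A8 gave the firmest difference between the times. Its signals were 3420.2 to 4711 (median 3522) in goggled eyes and 3358 to 4212 (median 3660.1) in open eyes at 3 d. At 6 h they were 2375 to 2816 (median 2611) in goggled eyes and 2406 to 3198 (median 2745) in open eyes. Every 3 d eye exceeded every 6 h eye, a separation in the upward direction that 2.48% of all tested probe sets had in goggled and 1.41% in open eyes. SLC16A8 was higher at 3 d by 0.51 ± 0.09 in goggled eyes (SE, limma adjusted p = 0.00103) and by 0.42 ± 0.09 in open eyes (adjusted p = 0.00625). The call held under each alternative tried, with adjusted p up to 0.0111 in goggled and 0.0361 in open eyes. SLC16A8 is itself a gene of the pigment epithelium. Of 10 other markers of that layer, 7 in goggled and 8 in open eyes had higher means at 3 d, with median differences of 0.25 and 0.28 and none called. Their summed signal was 4310 to 11124 (median 6750) in goggled and 4324 to 11270 (median 8444) in open eyes at 3 d, and 4482 to 7474 (median 6626) and 4304 to 8887 (median 7007) at 6 h. RPE65, the visual cycle isomerase that defines the layer, differed by 0.21 and 0.25 (limma adjusted p = 0.523 and 0.475). Lower means at 3 d in both eyes were those of MITF (-0.11 and -0.16) and SLC45A2 (-0.24 and -0.61), and in goggled eyes that of LRAT (-0.05). The 3 d means of SLC45A2 (17.0 in goggled and 11.2 in open eyes) lay below the background of 22.8. The part of the 10 markers in the SLC16A8 difference was not tested.

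LDHB, whose signals are given above, was higher at 3 d by 0.23 ± 0.07 in goggled eyes (SE, limma adjusted p = 0.0345). There the 6 eyes of each time did not overlap (2.48% of all tested probe sets were separate and higher). In open eyes the groups overlapped and the difference of 0.21 ± 0.07 was not called (adjusted p = 0.0666). The call in goggled eyes was close to its threshold. It was lost without 3 d goggled replicate 1, 3, 4 or 6 or 6 h goggled replicate 2, 3, 4, 5 or 6 (adjusted p 0.0520 to 0.0729), without the 3 arrays rich in choroid, sclera and vessel markers (0.23, adjusted p = 0.0598) and without both 6 h arrays rich in muscle markers (0.22, adjusted p = 0.118), so the difference itself hardly moved. After quantile normalization the difference was 0.13 (adjusted p = 0.167). LDHA differed by -0.08 and -0.02 and was not called in either eye. Photoreceptor markers moved the same way as LDHB: 7 of 9 had higher means at 3 d in each eye, 3 of them called in each (PDE6C, GUCA1A and PDC), with medians of 0.36 in goggled and 0.44 in open eyes. Their summed signal was 19420 to 26338 in goggled and 19986 to 28471 in open eyes at 3 d, and 15751 to 23968 and 15184 to 22549 at 6 h. The direction was not particular to photoreceptors. Mueller glia markers were higher for 5 of 6 in goggled and 4 of 6 in open eyes (medians 0.09 and 0.15). SLC1A3 among them was called in goggled eyes (0.30, limma adjusted p = 0.0131) and not in open eyes (0.20). Most pigment epithelium markers, given above, were higher as well. Of ganglion cell markers 2 of 5 in goggled and 3 of 5 in open eyes were higher. SNCG among them was called in each (0.44 and 0.42, limma adjusted p = 0.00977 and 0.0183). Of choroid, sclera and vessel markers 3 of 10 were higher in each eye, and none was called. The part of these markers in the LDHB difference was not tested.

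All 3 pyruvate dehydrogenase kinases had lower means at 3 d in both eyes, under each of the 3 scalings. PDK1 had 810 to 939.7 (median 914) in goggled eyes and 834 to 925 (median 848) in open eyes at 3 d. At 6 h PDK1 had 953 to 1229 (median 1033) in goggled eyes and 929.9 to 1026 (median 986) in open eyes. Neither the goggled nor the open eyes of the 2 times overlapped (3.63% and 2.01% of all tested probe sets were separate and lower). PDK1 fell by 0.24 in goggled eyes (SE 0.07, limma adjusted p = 0.0361), and in open eyes the difference of -0.17 ± 0.07 was not called (adjusted p = 0.176). The call was lost after median centring (-0.13, adjusted p = 0.384) and without 3 d goggled replicate 1, 3 or 4 or 6 h goggled replicate 3, 4 or 6 (adjusted p 0.0560 to 0.0809). It was also lost without the 3 arrays rich in choroid, sclera and vessel markers (-0.21, adjusted p = 0.0862), without the 2 rich in muscle markers (-0.26, adjusted p = 0.0711), with only the arrays compared (0.0938) and for the second probe set of PDK1 (-0.27, adjusted p = 0.0783). PDK4 differed by -0.53 ± 0.21 in goggled and -0.43 ± 0.21 in open eyes (adjusted p = 0.0885 and 0.211). Without 6 h goggled replicate 5, one of the arrays rich in muscle markers, PDK4 was called in goggled eyes (-0.66, adjusted p = 0.0416). That array held the lowest PDK4 signal of its group (466). With other arrays or chicks left out the PDK4 difference in goggled eyes shrank to as little as -0.44 (adjusted p up to 0.186). Under other settings it shrank to as little as -0.42 (adjusted p up to 0.221). PDK3 differed by -0.19 and -0.17.

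SLC2A1 had lower means at 3 d, by -0.34 ± 0.12 in goggled eyes (SE, limma adjusted p = 0.0663) and by -0.17 ± 0.12 in open eyes (adjusted p = 0.436). The goggled difference was called after quantile normalization (-0.45, adjusted p = 0.0472), with only the arrays compared, with an offset of 64, with trended variances, with array weights and without 6 h open replicate 2 (adjusted p 0.0377 to 0.0486). Under other settings it shrank to as little as -0.23, with adjusted p up to 0.170. With arrays or chicks left out it shrank to as little as -0.28, with adjusted p up to 0.168. SLC2A3 differed by -0.22 and -0.24. SLC16A3, a lactate exporter of glycolytic cells, differed by 0.04 and 0.09.

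VEGFA, whose signals are given above, fell by 0.60 in open eyes (SE 0.18, limma adjusted p = 0.0461), although the groups overlapped. In goggled eyes the VEGFA difference of -0.30 ± 0.18 was not called (adjusted p = 0.288), and the difference between the eyes was itself not called. The open-eye call was at the edge of its threshold. It was lost without any 1 of 14 arrays (3 d goggled replicates 1, 2 and 6, 3 d open replicates 3, 4, 5 and 6, 6 h goggled replicates 2 and 4, and 6 h open replicates 1, 2, 4, 5 and 6, adjusted p 0.0501 to 0.102) and when the chick was a random block (adjusted p = 0.0593). It was also lost after quantile normalization (-0.53, adjusted p = 0.0822), after median centring (-0.52, adjusted p = 0.0702), with only the arrays compared (0.0668), with no filter (0.0632) and with an offset of 4 (0.0541). Markers of choroid, sclera and vessels had lower means for 7 of 10 in each eye, with medians of -0.16 in goggled and -0.07 in open eyes and none called. Without the 3 arrays rich in these markers the VEGFA difference in open eyes was larger (-0.70) and called. Of these arrays, 3 d open replicate 2 held the highest VEGFA signal of its group (103.7). Without 6 h open replicate 5 alone the call was lost (limma adjusted p = 0.0843). The part of these markers in the VEGFA difference was not tested. EPAS1 differed by -0.36 ± 0.23 and -0.51 ± 0.23 and was called in goggled eyes without those 3 arrays (-0.55, adjusted p = 0.0466), while its second probe set differed by 0.06 and 0.09. EGLN3 differed by -0.41 and -0.08, and ADM by 0.03 and -0.32.

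HIF1A had higher means at 3 d, by 0.15 ± 0.07 in goggled and 0.14 ± 0.07 in open eyes (SE, limma adjusted p = 0.126 and 0.192), and was not called. Its second probe set was called in both eyes (0.26 and 0.29, adjusted p = 0.0256 and 0.0229), a probe set chosen for mention after its values were seen. That call was lost after quantile normalization (adjusted p = 0.147 and 0.0902) and with some single arrays or chicks left out (adjusted p up to 0.0708 and 0.0634). After median centring the brightest probe set was called in goggled eyes (adjusted p = 0.0161). Under other settings the difference of the brightest probe set shrank to as little as 0.10 in each eye. Adjusted p then went up to 0.420 in goggled and 0.454 in open eyes. BNIP3 and BNIP3L, which promote the removal of mitochondria, differed in opposite directions: 0.18 and 0.17 for BNIP3 and -0.16 and -0.15 for BNIP3L. EGLN1 differed by -0.08 and -0.06.

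All 12 glycolytic enzymes had higher means at 3 d in open eyes, with a median log2 difference of 0.15 (11 of 12 after quantile normalization, median 0.07, and 12 of 12 after median centring, median 0.23). None was called except under the alternatives given below. In goggled eyes 9 of the 12 were higher, with a median of 0.08 (7 after quantile normalization and 12 after median centring). HK2 had the highest difference in open eyes, 0.64 ± 0.25 (SE, limma adjusted p = 0.125), and differed by 0.37 ± 0.25 in goggled eyes, and its groups overlapped in both. PFKL differed by 0.42 ± 0.16 in open eyes (adjusted p = 0.105) and ALDOC, a brain-type aldolase, by 0.33 ± 0.11 (adjusted p = 0.0653). After median centring LDHB, HK1, PFKL, ALDOC and PGAM1 were called higher in open eyes (adjusted p 0.0133 to 0.0467), together with SLC16A8. LDHB was also called there with the stricter filter, an offset of 64, trended variances, array weights and without 6 h open replicate 3 (adjusted p 0.0208 to 0.0432). ALDOC was also called there with the stricter filter, an offset of 64, trended variances and without 3 d open replicate 4 (adjusted p 0.0334 to 0.0476), and HK1 at its second probe set (0.33, adjusted p = 0.0243). Further settings made these open-eye differences smaller, down to 0.11 for LDHB and PGAM1, 0.14 for HK1, 0.18 for ALDOC and 0.28 for PFKL. Adjusted p went up to 0.274 for LDHB, 0.532 for PGAM1, 0.475 for HK1, 0.357 for ALDOC and 0.211 for PFKL. PGK1 differed by 0.09 and 0.20, and PKM by -0.10 and 0.02.

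How far both eyes of a chick shared a gene's level was read from the deviations of both eyes from their group means, over 12 chicks. The chick and any preparation shared by a pair of arrays cannot be told apart here, and the pairing is inferred. The median Pearson r of the 31 genes was 0.26, against 0.27 over all tested probe sets, and 27 were above 0 (76.4% of all tested probe sets were). Without the chicks of the 3 arrays rich in choroid, sclera and vessel markers the median was 0.41 and 22 were above 0. In an exact permutation test of every pairing within each time 4 genes reached an unadjusted p under 0.05 (17% of all), and the r of 3 passed after Benjamini-Hochberg adjustment over all 26907 probe sets (2.54% of all). The rho of SLC16A1 alone passed in that way (0.572% of all). SLC16A1 had r = 0.93 (exact p = 5.4e-05, adjusted 0.0197) and Spearman's rho = 0.95 (exact p = 1.54e-05, adjusted 0.0270), with r = 0.92 within 3 d and 0.98 within 6 h. PFKM, the muscle-type phosphofructokinase, had r = 0.90 (exact p = 0.00044, adjusted 0.0360) and rho = 0.86 (exact p = 0.00123, adjusted 0.0813), with 0.77 within 3 d and 0.96 within 6 h. BNIP3 had r = 0.84 (exact p = 0.00108, adjusted 0.0475) and rho = 0.87 (exact p = 0.000309, adjusted 0.0503), with 0.95 and 0.74. Without the 2 chicks farthest from the median of the open eye, r was 0.91, 0.81 and 0.78.

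SLC16A1 signals at 3 d ran across chicks 1 to 6 as 3938, 4238, 4061, 3609, 2783 and 2964 in goggled eyes and 4593, 4665, 3831, 3638, 3027 and 3107 in their open fellows. At 6 h they were 3457, 3846, 3023, 4250.3, 3162 and 3357 in goggled and 3456, 3686, 2756, 4509, 2876 and 3333 in open eyes. At this probe set, chicks high in one eye were high in the other, while the goggle difference of SLC16A1 was -0.08 at 3 d and 0.04 at 6 h. GAPDH had r = 0.09 (rho = 0.17) and LDHB r = 0.03 (rho = -0.01), and ENO2, the neuronal enolase, had r = -0.42 (exact p = 0.149, adjusted 0.479) and rho = -0.50 (exact p = 0.0990, adjusted 0.432). SLC16A8 lay between them with r = 0.62 (exact p = 0.0188, adjusted 0.184) and rho = 0.59 (exact p = 0.0540, adjusted 0.342). The second probe set of BNIP3 had r = 0.60, and the chick means of its 2 probe sets correlated with r = 0.79. That of GAPDH, of similar signal to the brightest, had r = 0.52 (rho = 0.30), so the low r of GAPDH was not shared by both. Second probe sets also departed from the brightest for ENO1 (0.64 against 0.08) and GPI (0.82 against -0.27), and the other way for EGLN3 (0.05 against 0.50).

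**Figure D4:**
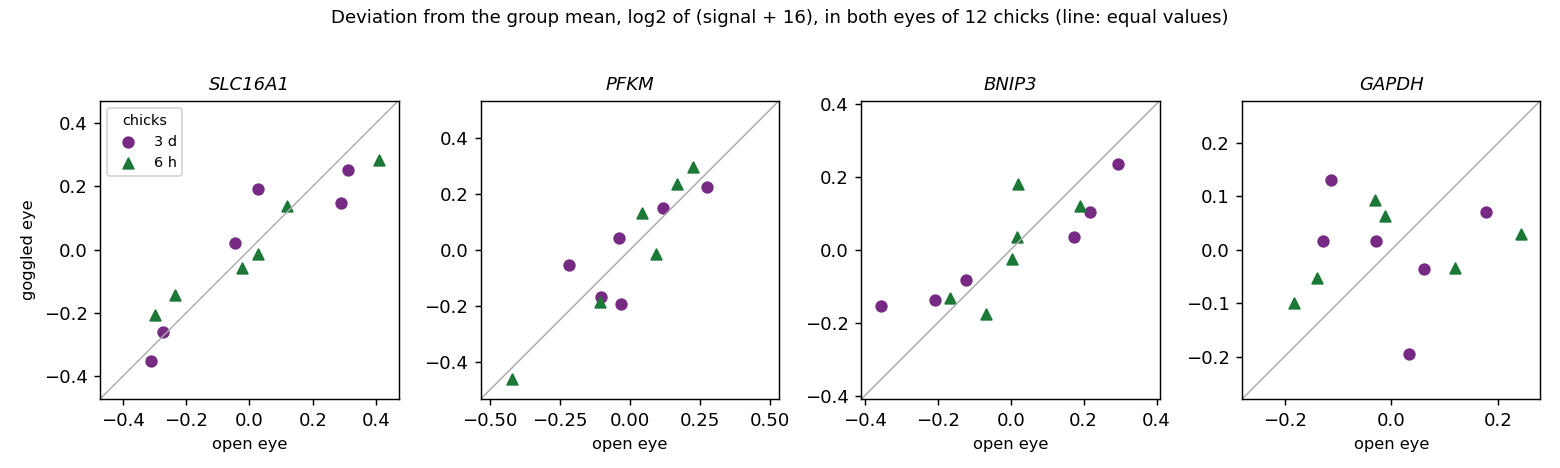
Deviation from the group mean in log2 of (signal + 16), in the goggled (vertical axis) against the open eye (horizontal axis) of 12 chicks, for SLC16A1, PFKM, BNIP3 and GAPDH. Circles are 3 d and triangles 6 h chicks, and the grey line marks equal values. The points of the first 3 genes follow the line (r = 0.93, 0.90 and 0.84), and those of GAPDH do not (r = 0.09). The second probe set of GAPDH, not drawn, had r = 0.52.

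The 4 probe sets of SLC16A1 did not tell the same story, a comparison made after their values were seen. The brightest, used above, and the second differed by 0.03 and -0.04 between the times in goggled eyes and by 0.15 and 0.09 in open eyes and were not called. The third had 350.3 to 689.7 (median 626) in goggled and 616 to 837 (median 748) in open eyes at 3 d, and 691 to 1285 (median 902) in goggled and 657 to 1117 (median 995) in open eyes at 6 h. It was called lower in goggled eyes (-0.65, limma adjusted p = 0.0108) and not in open eyes (-0.34, adjusted p = 0.213). The dimmest had 122 to 256 (median 219) in goggled and 211 to 281 (median 246) in open eyes at 3 d, and 326 to 606 (median 408) in goggled and 326 to 565 (median 483) in open eyes at 6 h. Neither eye overlapped between the times (3.63% of all tested probe sets in goggled and 2.01% in open eyes were separate and lower). The dimmest was called lower in both (-1.0 and -0.81, adjusted p = 0.000554 and 0.00421). The chick means of these other probe sets correlated with those of the brightest by -0.11 to 0.18, and their r between fellow eyes was 0.16, 0.52 and 0.46. Over the 13 genes with a second tested probe set, its sign matched the brightest in 9 at 3 d and 9 at 6 h for the goggle difference, and in 7 and 9 for the time difference in goggled and open eyes.

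**Figure D5:**
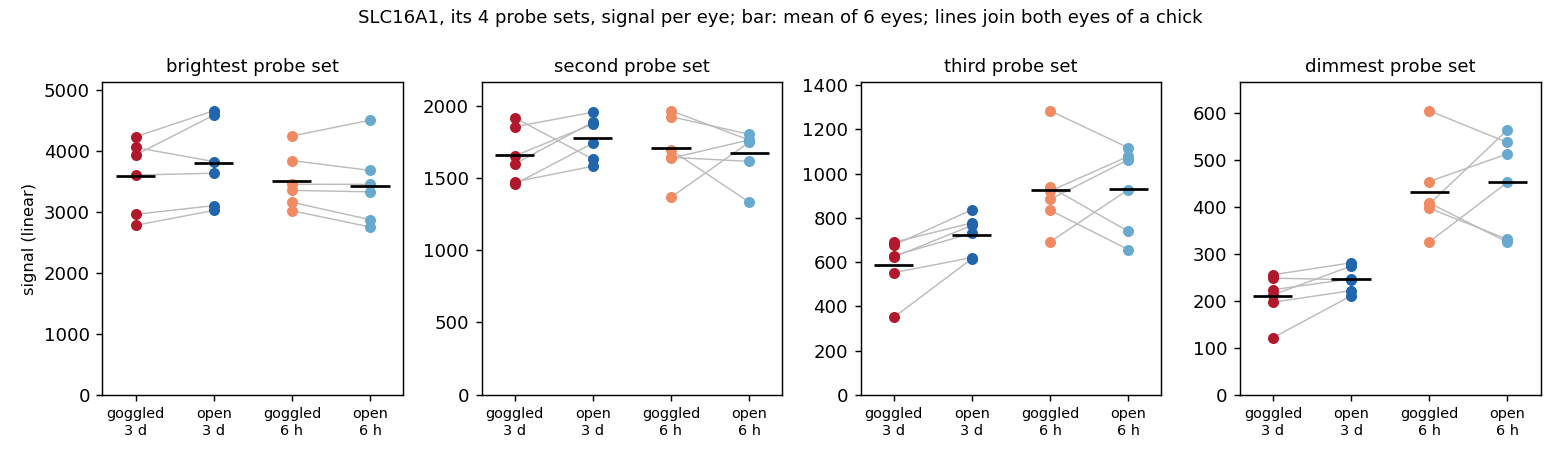
Linear signal (vertical axes, starting at 0, one scale per panel) of the 4 probe sets of SLC16A1 in the 24 eyes, by group. Bars are means of 6 eyes and lines join both eyes of a chick. The dimmest probe set has no overlap between 3 d and 6 h in either eye, while the brightest overlaps in both. Of all tested probe sets 3.63% in goggled and 2.01% in open eyes were separate and lower.

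Other genes of these pathways, 53 of them tested, gave no call in any goggle comparison. At 3 d 28 had higher and 25 lower means in goggled eyes, with a median of 0.02. Between the times 4 of the 53 were called in goggled eyes (12.7% of all tested probe sets) and 1 in open eyes (7.32%). PDHB, a subunit of the pyruvate dehydrogenase that the kinases above switch off, had 537 to 606 (median 559) in goggled eyes and 479 to 555 (median 528) in open eyes at 3 d. At 6 h PDHB had 385 to 502 (median 421) in goggled eyes and 386 to 568 (median 431) in open eyes. PDHB rose by 0.39 ± 0.09 in goggled eyes (SE, limma adjusted p = 0.00594) and differed by 0.23 in open eyes (adjusted p = 0.105). In goggled eyes its times did not overlap (2.48% of all tested probe sets were separate and higher). HIF1AN, an oxygen-dependent inhibitor of HIF1A, rose by 0.36 ± 0.09 in goggled eyes (adjusted p = 0.0152) and by 0.32 ± 0.09 in open eyes (adjusted p = 0.0412). The open-eye call of HIF1AN was lost under quantile normalization (adjusted p = 0.0624), with no filter (0.0538), with array weights (0.0926), with only the arrays compared (0.118), without the 3 arrays rich in choroid, sclera and vessel markers (0.115) and without 3 d open replicate 2, 4, 5 or 6 or 6 h open replicate 1, 2, 3 or 5 (adjusted p 0.0558 to 0.0934). GBE1, the glycogen branching enzyme, rose by 0.53 in goggled eyes (adjusted p = 0.0289), a call lost without 3 d goggled replicate 1, 5 or 6 or 6 h goggled replicate 2, 5 or 6 (adjusted p 0.0521 to 0.0740), without both arrays rich in muscle markers (0.106) and with only the arrays compared (0.0579). SLC2A9, a urate and hexose transporter, fell by 0.48 there (adjusted p = 0.0453), a call lost under quantile normalization (adjusted p = 0.262) and median centring (0.0967), without 3 d goggled replicate 1, 2, 4, 5 or 6, 3 d open replicate 1, 3 or 5, 6 h goggled replicate 2, 3, 5 or 6 or 6 h open replicate 2 (adjusted p 0.0501 to 0.101), and without the arrays rich in muscle markers (0.191).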

How the data were processed

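Both eyes of 6 chicks per time were measured on 24 Affymetrix GeneChip Chicken Genome arrays, from 3 µg of total RNA per eye per the labels' protocols. Each deposited value is a linear intensity, 1 for each probe set on each array, and the authors' scaling gives every array a 2% trimmed mean of 150.03. GCOS (version 1.4 per the labels' protocols) and RMA are listed per the submitters' processing notes, without their roles. The precision is limited by the number of arrays, and also by the scaling, the arrays rich in choroid or muscle markers and the inferred pairing.

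After removal of 96 control probe sets, those with a mean log2 value at or above the 30th percentile were kept (26907 of 38439). An offset of 16 was added before log2. Group means of all 24 arrays were fitted with limma 3.58.1 (R 4.3.3), and p-values were adjusted over all tested probe sets. The fit was tested on simulated data with known goggle changes at 3 d. It called 50% of true log2 changes of 0.5 and 92% of changes of 1, with 14 false calls. Changes below 0.5 were not simulated, so a lack of calls does not exclude differences of that size. The planned test of correlations between fellow eyes used 100000 permutations within times, adjusted over the 31 genes. The p-values printed come from every pairing within times, adjusted over all tested probe sets, a choice made after seeing the data (scipy 1.17.1). The genes and lists were chosen with earlier results of these data known. Values per group are given for each called gene of the 31, for the 3 highest and 3 lowest differences of each comparison, and for GAPDH, LDHA, LDHB, HK2, PKM, PDK4, SLC2A1, SLC16A8, VEGFA, HIF1A and PFKFB3. Other genes of the pathways are named where called, and of these only PDHB is given with values per group.

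Deviations from the group means correlated between same-numbered arrays with r = 0.102 to 0.445 at 3 d and 0.229 to 0.424 at 6 h (means 0.275 and 0.345), against means of -0.06 and -0.07 for other numbers. The deviations of a group sum to 0, so a positive mean for equal numbers by itself pulls the mean for other numbers below 0. Alternatives were the chick as a fixed or random block, other filters, offsets, scalings and variance models, only the arrays compared, the second probe set, and each array, each chick and the arrays rich in choroid or muscle markers left out.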

Additional observations from a re-analysis of the deposited data

Results flagged for a closer look

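Among the 124 combinations of 31 genes and 4 groups of 6 eyes, the highest or lowest value stood apart from the rest in 9, by more than Dixon's ratio of 0.625 (95%), which chance exceeds in about 1 of 20 groups. Among the enzymes these were ENO2 in 6 h open replicate 3 (10140.3, the others 7584 to 8464), TPI1 in 3 d open replicate 6 (7316, the others 4875 to 5615) and HK1 in 3 d goggled replicate 5 (1307, the others 1573 to 1680.4). LDHA was low in 6 h goggled replicate 6 (7311, the others 7794 to 8039), and PDK3 was high in 3 d open replicate 1 (890.4, the others 721 to 747). SLC16A8 was high in 3 d goggled replicate 4 (4711, the others 3420.2 to 3810), and without that array its call in goggled eyes held. The array of 3 d goggled replicate 3, richest in choroid, sclera and vessel markers, was high for EPAS1 (695, the others 279 to 330.3) and for ADM (131, the others 28.0 to 43.5). EGLN3 was low in 3 d goggled replicate 4 (1.80, the others 20.3 to 25.3), below the 22.8 of the 95th percentile of the background probe sets.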

How the results depend on the processing

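The count of 0 called genes in each goggle comparison held under the 15 alternative settings and the 36 leave-outs. With the replicate block (the chick, paired by number) the counts were 0 at 3 d, 0 at 6 h, 0 over both times and 0 for the difference of the effects. The times could not be fitted with this block, since each chick belongs to 1 time. The block changed no call. Medians of the 31 genes without 1 array were -0.12 to -0.03 at 3 d, -0.03 to 0.01 at 6 h, -0.06 to -0.02 over both times and -0.09 to -0.04 for the difference of the effects. In goggled eyes the 3 genes called between the times became 1 to 4 without 1 array or chick, and 1 without the 2 arrays rich in muscle markers. The median there was -0.02 to 0.04 without 1 array and 0.12 after median centring. In open eyes the 2 called genes became 1 to 3 without 1 array or chick (median 0.07 to 0.14). They became 1 with the random replicate block, without a filter, after quantile normalization (median 0.031), with offset 4 and with only the arrays compared, 4 with the filter at the 50th percentile, offset 64, trended robust variances and the second probe set, and 6 after median centring (median 0.18). The causes were not tested. Over the single genes, 132 of 11308 alternative values lost and 42 gained a call, 40 that were not called moved by more than the SD between chicks, and no called value reversed. The same 3 genes, SLC16A1, PFKM and BNIP3, correlated between fellow eyes after quantile normalization and with offset 4, and SLC16A1 and PFKM without the chicks of the arrays rich in choroid markers. With every pairing and adjustment over all probe sets, a setting added after the data were seen, the number was 3 by Pearson's r and 1 by Spearman's rho. A search of promoters for the element bound by HIF1A was not run, and promoters are not analysed here. Leaving out those chicks together with the block was added after the data were seen, and it also gave 0 calls. EGLN3, DDIT4 and ADM lie near background, where offsets shrink differences, and GAPDH and ENO1 lie near the top of the arrays' range.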
